A study of Mus musculus with 21 samples.

Results

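The genes described here are 40 mouse genes that respond within minutes to signals or stress, 29 immediate early genes and 11 heat shock genes. They were chosen by name from a fixed list, which was drawn up with earlier results of these data known. Their rows were taken from the 47643 gene rows counted in each of 21 RNA-seq libraries. The libraries came from 7 sorted populations of bone marrow progenitors of adult C57/B6 mice, with 3 libraries each and no genetic change or treatment in any group. All sorted cells lacked lineage markers and SCA-1 and carried C-KIT and CD34. Common myeloid progenitors (CMPs) were the CD16/32- cells among them and granulocyte-monocyte progenitors (GMPs) the CD16/32+ cells. Both were sequenced in bulk and after a further sort by the adhesion molecule CD62L: CD62L-low and CD62L-high CMPs, and CD62L-neg, CD62L-low and CD62L-high GMPs. In its text the study calls the CD62L-low CMPs CD62L-neg and the CD62L-low GMPs CD62L-int. CMPs of intermediate CD62L, and GMPs between the CD62L-low and CD62L-high gates, were not analysed here as fractions. The labels do not say whether replicate libraries came from separate animals, so p-values measure the spread between these libraries, which may be technical.

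Immediate early genes are transcribed without new protein synthesis after growth factors, cytokines or stress reach a cell. They encode transcription factors (the AP-1 proteins of the Fos, Jun, Atf and Maf families, the EGR proteins and the NR4A nuclear receptors) and feedback proteins that end the signal, such as the dual specificity phosphatases and the mRNA-binding zinc finger proteins of the Zfp36 family. In hematopoietic cells, Egr1 and members of the NR4A family have been tied to quiescence and lineage choice. Heat shock genes encode chaperones that fold proteins. Hspa8 and Hsp90ab1 are made in almost every cell, whereas Hspa1a, Hspa1b and Hspb1 are induced by stress through heat shock factor. Many of these genes also change when tissue is dissociated and cells are stained and sorted, and the time each population spent in sorting is not given in the sources used here.

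Libraries held 6145834 to 15263573 counts. Bulk CMP replicate 2 and CD62L-high GMP replicate 1 stood apart from their replicates. In them 3 gene models (Gm23935, Gm26917 and Gm42418) took 61.0% and 41.1% of counts, against 22.4% to 31.7% in the other libraries. Protein-coding genes took 30.7% and 52.2%, against 60.2% to 68.1% in the other libraries. Some results that rest on bulk CMP replicate 2 or CD62L-high GMP replicate 1 are also given without them. Among genes of the sorting gates, Kit was present in every population (110 to 422 CPM, counts scaled to a common library total), Fcgr3, which encodes CD16, was at 131 CPM or more in GMPs and at 15.7 or less in CMPs, and Cd34 was lowest in CD62L-low CMPs (46.8 to 138 CPM).

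Promoters are shown because the factors that switch these genes on bind there, and their sequence was not used to choose the genes. Of the 40 genes, 34 had RefSeq windows (GRCm38.p6) of 300 bases, from 250 before to 50 after the start site. The 6 without were Egr1, Egr3, Ier2, Hspa8, Hsp90aa1 and Hsp90ab1. Windows of 27025 genes were searched on both strands for the binding motifs of the factors that act on these genes. A gene with several windows was counted when any of them held a match. The EGR site, GCGNGGGCG, was found in 10 of the 26 immediate early genes (Btg2, Dusp2, Fosb, Fosl2, Gadd45b, Maff, Nr4a1, Nr4a2, Socs3 and Zfp36) and in 1 of 8 heat shock genes (Dnaja1), against 6.27% of all genes. The cyclic AMP response element (CRE), TGACGTCA, was found in 4 of 26 (Btg2, Dusp1, Maff and Ppp1r15a), against 2.03% of all genes. The heat shock element, searched as 3 alternating GAA and TTC units with any 2 bases between them, was found in 3 of 8 heat shock genes and in none of the immediate early genes, against 0.662% of all genes. For Hspd1 and Hspe1, divergently transcribed genes of the mitochondrial chaperonin, it is the same stretch, which lies before a start site of each. The window of the outer Hspd1 start site held no element. In Hsph1 the element lies after the start site. Hspa1a, Hspa1b, Hspb1, Dnajb1 and Dnaja1 had no match to this form of the element. The AP-1 site, TGANTCA, was found in 2 of 26 (Csrnp1 and Zfp36l1), against 8.97% of all genes, and the CArG box bound by serum response factor in 2 of 26 (Egr2 and Zfp36), against 1.81%. The TATA box, TATAAA, was found in 8 of 26, Fos among them, against 15.7%. In Junb, Ppp1r15a and Nfkbia the match began at or after the start site, and in Nr4a2 at -164 from it. In Nfkbia and Nr4a2 it was on the other strand. A match describes the letters only, and the windows reach no distal site. The 180 bases before the start site are printed 5′ to 3′ on the strand of each gene, for members whose levels differed most between populations or that hold the stretches named, with the motifs in capitals.
Dusp1 (CRE; chr17:26508473-26508652, minus strand): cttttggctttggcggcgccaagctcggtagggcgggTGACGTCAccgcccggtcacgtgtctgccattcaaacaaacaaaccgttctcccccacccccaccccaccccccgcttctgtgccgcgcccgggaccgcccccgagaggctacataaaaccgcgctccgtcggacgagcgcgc
Btg2 (CRE, then EGR site; chr1:134079156-134079335, minus strand): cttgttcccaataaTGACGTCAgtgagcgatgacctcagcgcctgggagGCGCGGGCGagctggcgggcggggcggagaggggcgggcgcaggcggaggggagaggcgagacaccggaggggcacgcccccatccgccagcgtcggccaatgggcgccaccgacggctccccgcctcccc
Maff (EGR site, then CRE; chr15:79347340-79347519, plus strand): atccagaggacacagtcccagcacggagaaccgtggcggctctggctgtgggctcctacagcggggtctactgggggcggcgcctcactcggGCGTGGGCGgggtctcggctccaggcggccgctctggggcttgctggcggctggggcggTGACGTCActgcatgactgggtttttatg
Zfp36l1 (AP-1 site, then TATA box; chr12:80113014-80113193, minus strand): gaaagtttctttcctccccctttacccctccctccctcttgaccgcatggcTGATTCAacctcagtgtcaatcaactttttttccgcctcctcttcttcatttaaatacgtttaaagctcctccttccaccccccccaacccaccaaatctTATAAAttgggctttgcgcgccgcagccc
Nr4a1 (EGR site on the other strand; chr15:101266666-101266845, plus strand): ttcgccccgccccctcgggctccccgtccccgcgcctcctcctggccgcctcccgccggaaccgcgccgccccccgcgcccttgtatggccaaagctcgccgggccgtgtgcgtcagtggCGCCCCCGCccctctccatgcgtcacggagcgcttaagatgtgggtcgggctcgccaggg
Hspe1 (heat shock element shared with Hspd1; chr1:55087968-55088147, plus strand): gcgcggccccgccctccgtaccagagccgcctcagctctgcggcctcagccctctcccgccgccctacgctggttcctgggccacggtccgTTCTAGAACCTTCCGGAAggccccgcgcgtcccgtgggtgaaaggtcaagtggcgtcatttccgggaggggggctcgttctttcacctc

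Both classes were transcribed in every population, but over different ranges. On the scale of CPM per kilobase of exon, the highest members were the constitutive chaperones Hsp90ab1 (population means of 825 to 1335) and Hspa8 (415 to 657), followed by Jun (159 to 794), Jund (124 to 544) and Fos (199 to 281). Population means ran over a wide range for Zfp36l1 (0.244 to 38.5), Egr1 (1.31 to 94.7) and Nr4a1 (2.04 to 144). Hspb1, the small heat shock protein, had 18 counts in all, in 2 of 21 libraries, and was the only member below the filter on low counts. In the quasi-likelihood F test of edgeR over the 7 populations, 33 of the 39 members tested differed somewhere among them at an adjusted p under 0.05, beside 39.0% of the 14801 genes tested. These were 27 of 29 immediate early genes and 6 of 10 heat shock genes. Without the pair of libraries that stood apart, 9 of 10 heat shock genes and 28 of 29 immediate early genes differed, beside 45.1% of the 15399 genes then tested. In all that follows a gene is called when its adjusted p is under 0.05 and its fold change over 2, and in bulk RNA fewer cells that express a gene and less RNA per cell cannot be told apart. Where libraries are said not to overlap, this describes the genes named and, with 3 libraries each, adds little to a call. The share of all genes without overlap is given only for bulk populations against their fractions.

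**Figure D1:**
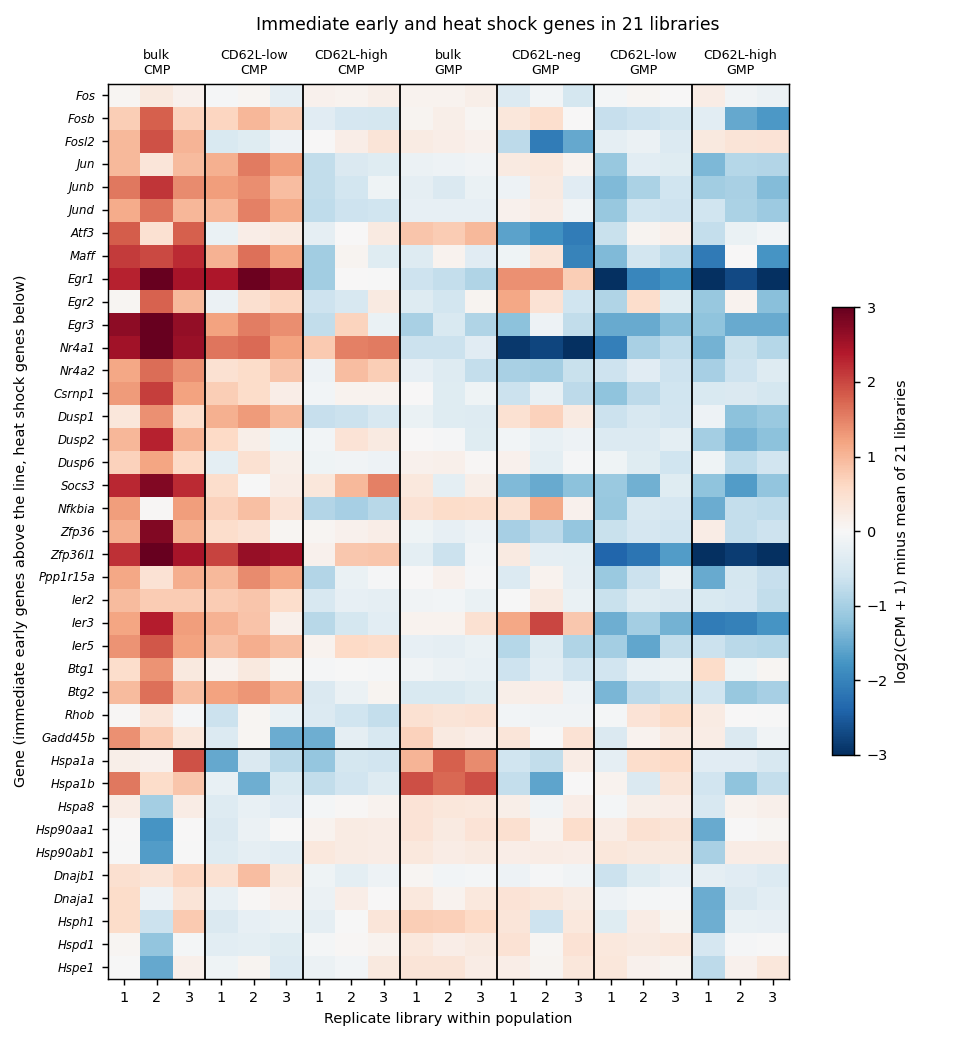
Each row is a member, each column 1 of 21 libraries, and the colour is log2(CPM + 1) minus the mean of that gene over the 21 libraries, from -3 (blue) to 3 (red). Bulk CMPs and CD62L-low CMPs hold most of the red among the immediate early genes, Egr1, Nr4a1 and Zfp36l1 have the strongest contrasts, and bulk CMP replicate 2 and CD62L-high GMP replicate 1 are blue in most heat shock genes. Hspb1 is left out.

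Within CMPs, immediate early genes were lower in CD62L-high than in CD62L-low cells. Of 29, 13 were called lower and none higher, beside 4.84% of all genes tested called lower and 5.62% called higher. Their median log2 fold change was -0.95 with 26 below 0, beside a median of 0.01 over all genes. The largest difference was in Egr1, a zinc finger transcription factor, which stood at 332, 474 and 401 CPM in CD62L-low CMPs and at 29.2, 61.5 and 60.6 in CD62L-high CMPs. No library of either population overlapped the other, and the log2 fold change was -2.99 ± 0.34 (SE, n = 3 libraries each; adjusted p = 4e-07 in edgeR).

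The Jun family, the partners of Fos in AP-1, moved together in CMPs while Fos itself did not pass the test. Jun lay at 2142, 3002 and 2451 CPM in CD62L-low CMPs and at 609, 753 and 800 in CD62L-high CMPs. Jund lay at 754, 1069 and 824 CPM against 220, 244 and 249.2, and Junb at 234, 259 and 187 against 57.7, 66.6 and 88.7. None of these 3 genes had overlapping libraries, and their log2 fold changes were -1.81 ± 0.21, -1.89 ± 0.19 and -1.67 ± 0.22 (SE; adjusted p = 4.65e-07, 5.67e-08 and 3.08e-06 in edgeR). Fosb, a Fos paralogue, stood at 376, 479 and 400 CPM in CD62L-low and 189, 167 and 165 in CD62L-high CMPs (log2 fold change -1.27 ± 0.28). Fos was at 574, 609 and 488 CPM in CD62L-low and 644, 628 and 660 in CD62L-high CMPs, which do not overlap but differ by a log2 fold change of 0.21 ± 0.14 (adjusted p = 0.382 in edgeR). Maff, a small Maf protein, stood at 14.4, 22.5 and 16.1 against 2.61, 6.92 and 4.82 CPM. Its call was lost when CD62L-low replicate 2 or 3 or CD62L-high replicate 1 or 3 was left out (adjusted p from 0.0567 to 0.144).

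The feedback genes that were lower in CD62L-high CMPs act at different points. Dusp1, a phosphatase of MAP kinases, stood at 466, 540 and 435 CPM in CD62L-low and 138, 141 and 159 in CD62L-high cells (log2 fold change -1.72 ± 0.24). Nfkbia, the inhibitor of NF-kappa B, stood at 189, 219 and 157 against 63.4, 57.7 and 65.4 CPM (-1.60 ± 0.28). Zfp36l1, which binds AU-rich mRNA, stood at 62.4, 94.2 and 89.4 against 16.2, 26.5 and 26.9 CPM (-1.82 ± 0.33). In all 3 the populations were fully separated. Ppp1r15a, a phosphatase subunit of the integrated stress response, was at 267, 366 and 303 against 73.6, 118 and 134 CPM, and its log2 fold change was -1.52 ± 0.26. Btg2, an antiproliferative gene, stood at 170, 186 and 157 against 54.5, 65.5 and 77.5 CPM (-1.38 ± 0.21). Ier3 stood at 41.9, 36.5 and 22.2 against 10.7, 13.5 and 15.8 CPM (-1.33 ± 0.32). Ier2, at 336, 352 and 284 against 141, 165 and 163 CPM (-1.05 ± 0.14), completed the 13. All 4 were without overlap, and Ier2 lay at the fold limit, with log2 fold changes of -0.99 without CD62L-low replicate 2 or CD62L-high replicate 1. The remaining 16 immediate early genes were not called, among them the NR4A receptors: Nr4a1 stood at 188, 198 and 141 CPM in CD62L-low and 105, 174 and 182 in CD62L-high CMPs, which overlap.

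Megakaryocyte markers differed along the same sort. The summed level of 7 of them, all with counts in both populations, was 639 to 755 CPM in CD62L-low and 15.7 to 21 in CD62L-high CMPs, with Itga2b at 342 to 404 against 6.40 to 10.5. Summed mature erythroid markers were at 23.1 to 26.2 against 8.54 to 20.8 CPM. Of the B cell list, Ighm was higher in CD62L-high cells (150 to 193 against 0.128 to 10.9 CPM). The part of these cells in the differences was not tested. The 3 gene models took 28.8% to 31.7% of counts in CD62L-low and 23.6% to 24.9% in CD62L-high CMPs, and the part of that gap was not tested either.

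Within GMPs the sort divided the immediate early genes. Between CD62L-high and CD62L-neg GMPs, 10 were called lower and 3 higher (beside 6.01% and 4.49% of all genes), with a median log2 fold change of -0.68. The 3 that were higher were Nr4a1, Fosl2 and Atf3. Nr4a1, an orphan nuclear receptor, stood at 7.34, 8.09 and 6.01 CPM in CD62L-neg, 13.8, 30.3 and 35.1 in CD62L-low and 22.1, 37.5 and 32.9 in CD62L-high GMPs. Every CD62L-neg library was below every other GMP library, and the log2 fold change of CD62L-high against CD62L-neg was 2.11 ± 0.34 (adjusted p = 6.28e-05 in edgeR). Fosl2, another Fos paralogue, stood at 36.3, 14.0 and 21.3 CPM in CD62L-neg and 78.3, 83.3 and 84.9 in CD62L-high GMPs (1.78 ± 0.25). Atf3, a stress-induced AP-1 partner, stood at 10.8, 9.19 and 7.29 against 20.7, 29.96 and 32.5 CPM (1.61 ± 0.30).

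Egr1 was again the most strongly lower of the transcription factors. It stood at 158, 158 and 103 CPM in CD62L-neg, 6.58, 14.9 and 16.9 in CD62L-low and 3.92, 8.38 and 5.36 in CD62L-high GMPs, and the log2 fold change between the ends of the sort was -4.56 ± 0.38 (adjusted p = 4.01e-09 in edgeR). CD62L-neg GMPs were apart from the other fractions, which overlapped one another. Zfp36l1 stood at 17.8, 11.9 and 11.8 CPM in CD62L-neg, 2.01, 2.44 and 3.94 in CD62L-low and 0.735, 1.19 and 0.268 in CD62L-high GMPs. It was the only member called between CD62L-high and CD62L-low GMPs (log2 fold change -1.96 ± 0.50, adjusted p = 0.0386 in edgeR, beside 0.885% of all genes called lower and 0.331% higher). That call was lost in 6 alternatives (adjusted p from 0.0523 to 0.292), among them when any CD62L-low library or CD62L-high replicate 1 or 3 was left out. Ier3, an early response gene tied to cell survival, stood at 45.9, 82.4 and 35.5 CPM in CD62L-neg, 6.51, 9.32 and 6.83 in CD62L-low and 3.84, 4.08 and 5.09 in CD62L-high GMPs. Its log2 fold change from CD62L-neg to CD62L-high was -3.65 ± 0.35. The step was large between CD62L-neg and CD62L-low cells (-2.86 ± 0.33), and the libraries of CD62L-low and CD62L-high GMPs did not overlap but that difference was not called.

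Other members lower at the CD62L-high end of GMPs were Jun (1238, 1275 and 1107 against 401, 567 and 552 CPM), Fosb, Junb, Dusp1, Nfkbia, Egr3 and Dusp2, a phosphatase of MAP kinases in the nucleus. Fosb stood at 304, 342 and 240 CPM in CD62L-neg and at 190, 82.0 and 71.9 in CD62L-high GMPs, where replicate 1 was the high library. Dusp1 had the same pattern, at 306, 360 and 268 against 199, 94.5 and 103 CPM. Nfkbia stood at 160, 258 and 128 against 41.2, 70.8 and 68.6 CPM (log2 fold change -1.59 ± 0.28), without overlap. Egr3 had 32 counts over the CD62L-neg and 3 over the CD62L-high libraries, a ratio of 11.3 with an exact 95% counting interval of 3.54 to 57.8, and its call was lost without CD62L-neg replicate 2 or CD62L-high replicate 2 or 3 (adjusted p from 0.0969 to 0.175). Its libraries overlapped. Junb stood at 87.9, 117 and 77.3 against 46.7, 49.3 and 39.0 CPM, and Dusp2 at 49.98, 45.0 and 47.6 against 25.6, 19.3 and 22.0, neither with overlap. Junb dropped under the fold limit without CD62L-neg replicate 2 or CD62L-high replicate 3 (log2 fold change -0.88 and -0.98). Between CD62L-low and CD62L-neg GMPs, 6 members were called lower (Egr1, Ier3, Zfp36l1, Nfkbia, Dusp1 and Btg2, beside 2.48% of all genes) and 3 higher (Atf3, Nr4a1 and Fosl2, beside 1.84%). Of these, without CD62L-neg replicate 2 the calls of Nfkbia (-0.96), Dusp1 (-0.92) and Fosl2 (0.87) were lost, and Dusp1 was also lost without CD62L-low replicate 1 (-0.996). Btg2 was at the fold limit (-1.01 ± 0.21) and was lost in 15 of 28 alternatives. Both comparisons share the CD62L-neg libraries.

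Markers of other cells differed along the GMP sort as well, in either direction. Megakaryocyte markers summed to 113 to 139 CPM in CD62L-neg GMPs, with Itga2b at 100 to 128, against 5.05 to 8.25 in CD62L-low and 0.519 to 0.603 in CD62L-high GMPs. Macrophage markers summed to 61.2 to 87.4 CPM against 21.1 to 35.2 and 17.1 to 24.1. Most of that was Vcam1 (40.6 to 55.7 CPM) and Slc40a1 (15.7 to 26.3), whereas C1qa was at 0.471 CPM or less, and C1qb and Marco were at 0. Late neutrophil markers summed to 19.1 to 42.3 CPM against 15.6 to 28.7 and 10.4 to 14.1. B cell markers ran the other way, at 12.6 to 20.7 CPM in CD62L-neg, 83.2 to 98.2 in CD62L-low and 150 to 233 in CD62L-high GMPs, most of it Ighm in the latter 2 populations. T and NK cell markers summed to 7.05 CPM or less in every population. The part of these cells in the results was not tested.

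The CD62L sort acted unequally on 8 members in CMPs and GMPs. The difference between the effect in CMPs (CD62L-high minus CD62L-low) and that in GMPs (CD62L-high minus CD62L-neg) was tested as an interaction in edgeR, and 7.35% of all genes passed at an adjusted p under 0.05 (5.05% above 0 and 2.30% below). Above 0 the log2 fold change is higher in CMPs. Of the members, 4 were above 0 and 4 below. Nr4a1 (difference -2.30 ± 0.45), Atf3 (-1.69 ± 0.41) and Fosl2 (-1.24 ± 0.35) were higher in CD62L-high cells among GMPs and had log2 fold changes of -0.19, -0.08 and 0.54 among CMPs. Egr1 (1.56 ± 0.47), Zfp36l1 (2.43 ± 0.56) and Ier3 (2.32 ± 0.46) were lower in CD62L-high cells of both lineages, by more in GMPs. Jund (-0.93 ± 0.26) was lower by more in CMPs. The chaperone cofactor Dnaja1 (1.04 ± 0.30) had log2 fold changes of 0.04 in CMPs and -0.997 in GMPs. The results for Nr4a1, Atf3, Zfp36l1 and Ier3 passed under every alternative run, while those for Egr1, Dnaja1, Fosl2 and Jund were lost in 13, 15, 8 and 4 of 27.

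**Figure D2:**
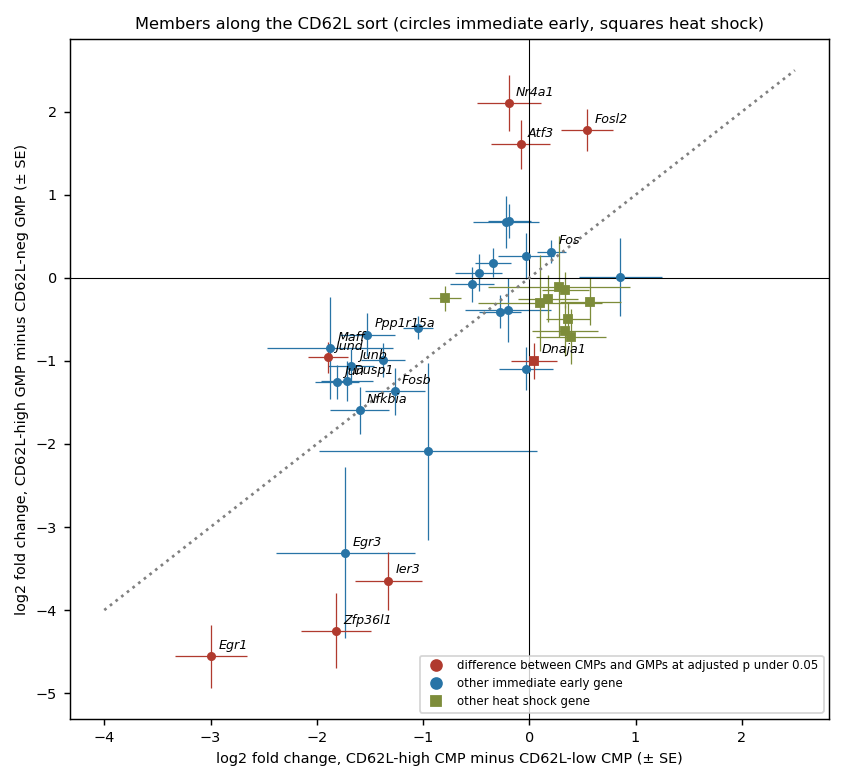
Each point is a member (circles immediate early, squares heat shock), with its log2 fold change between CD62L-high and CD62L-low CMPs on the x axis and between CD62L-high and CD62L-neg GMPs on the y axis, bars of 1 SE, and a dotted line of equal effect. Red marks the 8 members whose effects differed between CMPs and GMPs. Nr4a1, Fosl2 and Atf3 sit above the line, Egr1, Zfp36l1 and Ier3 below it.

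**Figure D3:**
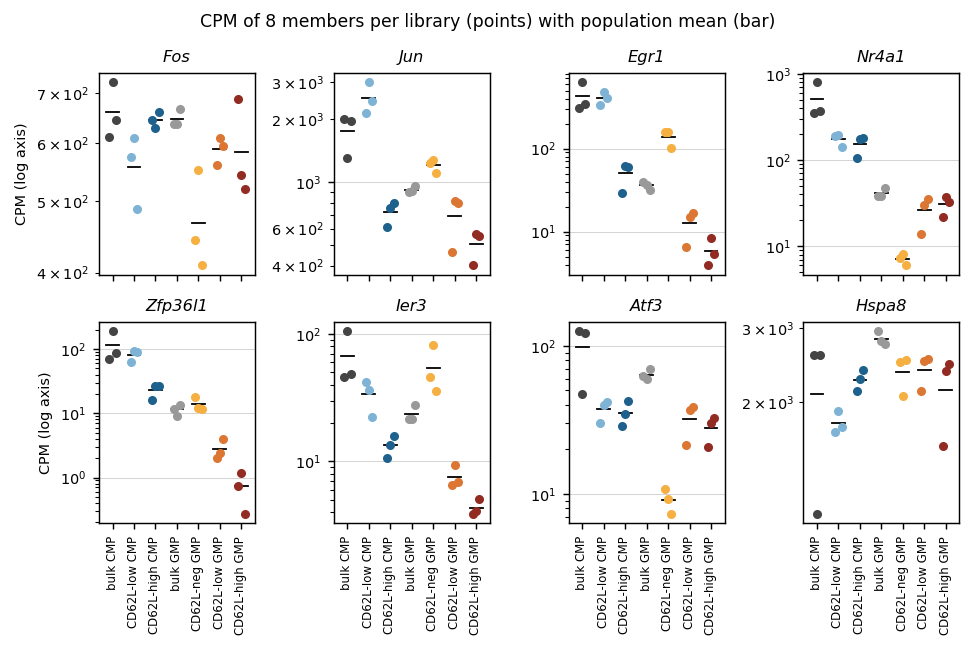
CPM on a log axis of 8 members in each library (points) of the 7 populations, with the mean as a bar. Fos varies least among the immediate early genes shown, Egr1, Zfp36l1 and Ier3 have high CD62L-neg GMPs, and Nr4a1 and Atf3 have low CD62L-neg GMPs.

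From CMPs to GMPs, immediate early genes were lower in each of the matched pairs. Bulk GMPs had 18 of 29 called lower than bulk CMPs and none higher, beside 7.30% and 4.19% of all genes. CD62L-high GMPs had 9 called lower than CD62L-high CMPs and none higher, beside 5.11% and 2.53%. CD62L-neg GMPs had 17 called lower than CD62L-low CMPs and none higher, beside 6.11% and 6.49%. Median log2 fold changes were -1.52, -0.54 and -1.08. Without bulk CMP replicate 2, bulk GMPs had 17 of 29 called lower than bulk CMPs, with a median of -1.15.

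Nr4a1 was lower in GMPs in every pair. It stood at 351, 795 and 369 CPM in bulk CMPs and at 38.3, 38.4 and 47.6 in bulk GMPs (log2 fold change -3.60 ± 0.33, adjusted p = 4.86e-08 in edgeR). Between CD62L-low CMPs and CD62L-neg GMPs the difference was -4.62 ± 0.36, and between the CD62L-high populations -2.32 ± 0.32. Its relative Nr4a2 was lower in GMPs in the same comparisons (-1.96 ± 0.27, -1.62 ± 0.27 and -1.33 ± 0.27). Egr1 stood at 307, 626 and 341 CPM in bulk CMPs and 39.3, 36.6 and 31.9 in bulk GMPs (-3.56 ± 0.35). Zfp36l1 was at 70.8, 189 and 85.9 against 11.8, 8.95 and 13.7 CPM (-3.31 ± 0.35), and the gap was -5.00 ± 0.45 between the CD62L-high populations. Socs3, the inhibitor of cytokine signalling through JAK and STAT, was at 24.8, 35.9 and 24.3 against 5.61, 3.40 and 5.04 CPM (-2.59 ± 0.40). In each of these genes the bulk CMP and bulk GMP libraries did not overlap. Zfp36, which destabilises AU-rich mRNA, was at 773, 2483 and 752 against 329, 305 and 326 CPM (-2.06 ± 0.32). Ier5, an early response gene, was at 87.8, 124 and 79.3 against 28.1, 27.7 and 29.0 CPM (-1.77 ± 0.21). Egr3, a relative of Egr1, was at 17.6, 40.7 and 16.8 against 0.454, 1.08 and 0.535 CPM (-5.15 ± 0.76). Csrnp1, a nuclear protein induced by AXIN1, was at 72.8, 127 and 69.5 against 29.8, 22.8 and 27.1 CPM (-1.75 ± 0.23). For each of these genes bulk CMP replicate 2 was the highest CMP library, and the remaining bulk CMP libraries were still above every bulk GMP library.

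Without bulk CMP replicate 2, Fosb (log2 fold change -0.61), Fosl2 (-0.81) and Dusp1 (-0.76) were no longer called between bulk GMPs and bulk CMPs. In the pair of lowest CD62L, Atf3 was at 29.9, 39.96 and 42.0 CPM in CD62L-low CMPs and 10.8, 9.19 and 7.29 in CD62L-neg GMPs (-2.03 ± 0.30), while Dusp1, Nfkbia and Ier3 were not called there. That comparison rested near the fold limit for 4 genes: Jun (-0.95) and Jund (-0.997) lost their calls without CD62L-low CMP replicate 2, Fosl2 (-0.83) without CD62L-neg GMP replicate 2, and Csrnp1 without CD62L-low CMP replicate 1 (-0.97) or CD62L-neg GMP replicate 3 (-0.98). Maff lost its call without CD62L-low CMP replicate 2 or 3 or CD62L-neg GMP replicate 1 or 3 (adjusted p from 0.0644 to 0.137). Stem and multipotent progenitor markers summed to 328 to 433 CPM over the CMP populations and 82.7 to 108 over the GMP populations. Megakaryocyte markers were lower in GMPs too, at 173 to 181 CPM in bulk CMPs and 20.2 to 26.4 in bulk GMPs, and at 639 to 755 in CD62L-low CMPs and 113 to 139 in CD62L-neg GMPs. Macrophage markers were higher in GMPs, at 4.78 to 7.31 CPM against 19.0 to 26.6 in bulk and at 8.04 to 15.1 against 61.2 to 87.4 in the pair of lowest CD62L. The part of these cells in the differences was not tested.

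Fos was called in none of these 7 comparisons. Its population means were 468 to 660 CPM, and the adjusted p over the 7 populations was 0.0667 in edgeR, or 0.00228 without the pair of libraries that stood apart. Egr2, Dusp6, Btg1, Rhob and Gadd45b were not called in any of them either. Rhob, a small GTPase, ran from 117 to 287 CPM over all libraries, and Btg1 from 64.4 to 253, with bulk CMP replicate 2 the highest.

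Bulk populations lay above all their sequenced fractions for many of these genes. The higher bulk levels were seen first and examined afterwards. The fractions do not add up to the bulk populations. Bulk CMPs also hold CMPs of intermediate CD62L, which were not analysed here. In the study the CD62L-low and CD62L-high GMPs were the lower and upper ends of the CD62L-positive GMPs. Bulk GMPs therefore also hold cells between these gates that are in no sequenced fraction. Every bulk CMP library was above every library of CD62L-low and CD62L-high CMPs for 18 of 39 members (16 immediate early and 2 heat shock genes), beside 3.16% of all genes, and below them for none, beside 2.90%. Without bulk CMP replicate 2 the number above was 22, beside 5.95%. Every bulk GMP library was above all 9 libraries of the GMP fractions for 8 members, Atf3, Nr4a1, Socs3, Ier5, Hspa1a, Hspa1b, Hspa8 and Hsph1, beside 1.03%, and below them for none, beside 0.709%.

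Hspa1b, an inducible HSP70 gene, was the clearest of these. It stood at 14.8, 12.7 and 14.98 CPM in bulk GMPs and at 0.393 to 4.46 in the GMP fractions. In bulk CMPs it was at 11.5, 5.08 and 6.40 CPM, and at 0.511 to 2.54 in the CMP fractions. Its neighbour Hspa1a stood at 6.36, 11.6 and 8.64 CPM in bulk GMPs against 1.18 to 4.46 in the fractions, and at 3.08, 2.99 and 12.7 in bulk CMPs against 0.242 to 1.66. The genes have near-identical sequence (66.3% of the 50-base stretches of Hspa1a and 62.3% of those of Hspa1b occur in other genes, mostly in each other), so their counts are uncertain as to which gene they came from. Against CD62L-neg GMPs the log2 fold changes of bulk GMPs were 3.04 ± 0.57 for Hspa1b and 2.20 ± 0.61 for Hspa1a (adjusted p = 0.00106 and 0.0275 in edgeR), and against CD62L-high GMPs 3.35 ± 0.58 and 2.31 ± 0.61. Against CD62L-low GMPs neither was called (2.07 ± 0.54 and 1.32 ± 0.58). The calls of Hspa1a were lost without any of 4 libraries against CD62L-neg GMPs (bulk replicate 2 or 3, CD62L-neg replicate 1 or 2; adjusted p from 0.071 to 0.141) and without any of the 6 against CD62L-high GMPs (0.0562 to 0.153).

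Among immediate early genes, Atf3 stood at 125, 47.5 and 123.0 CPM in bulk CMPs against 28.8 to 42.2 in the CMP fractions, and at 62.7, 59.9 and 69.3 in bulk GMPs against 7.29 to 38.7 in the GMP fractions. Socs3 stood at 24.8, 35.9 and 24.3 CPM in bulk CMPs against 4.34 to 14.2 in the fractions. Nr4a1 was at 351 to 795 CPM in bulk CMPs against 105 to 198. Bulk CMPs had 10 members called higher than CD62L-low CMPs (beside 4.08% of all genes) and 25 higher than CD62L-high CMPs (beside 2.89%), with none lower (beside 1.55% and 1.18%). Bulk GMPs had 6 called higher than CD62L-neg GMPs (beside 2.18%) and 2 lower (Egr1 and Ier3, beside 1.89%), 2 higher than CD62L-low GMPs (Zfp36l1 and Ier3, beside 0.263%) and 11 higher than CD62L-high GMPs (beside 1.68%), with none lower in either (beside 0.0135% and 0.419%). The comparisons of a bulk population share its libraries. Several rested on bulk CMP replicate 2, and without it 7 members were called higher against CD62L-low CMPs and 20 against CD62L-high CMPs. Those no longer called were Csrnp1 (log2 fold change 0.74), Dusp2 (0.78) and Zfp36 (0.73) against CD62L-low CMPs. Against CD62L-high CMPs they were Fosl2 (0.79), Dusp2 (0.81), Ier5 (0.87), Zfp36 (0.95) and Socs3 (1.32, adjusted p = 0.0578 in edgeR). Against the CMP fractions, Hspa1a, Hspa1b and Gadd45b each lost their calls in 3 to 5 of 28 alternatives. Bulk GMPs were no longer called against CD62L-high GMPs for Fosb in 5, Dusp2 in 3 and Atf3 in 2. The calls of Ier3 were lost in 3 alternatives each against CD62L-neg GMPs (without bulk replicate 1 or 2 or CD62L-neg replicate 2) and CD62L-low GMPs (without bulk replicate 3 or CD62L-low replicate 1 or 3). Zfp36l1 lost its call against CD62L-low GMPs without bulk replicate 3 or CD62L-low replicate 1 or 2. Whether bulk and fractionated cells were sorted on the same day or for the same time is not given in the sources used here.

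**Figure D4:**
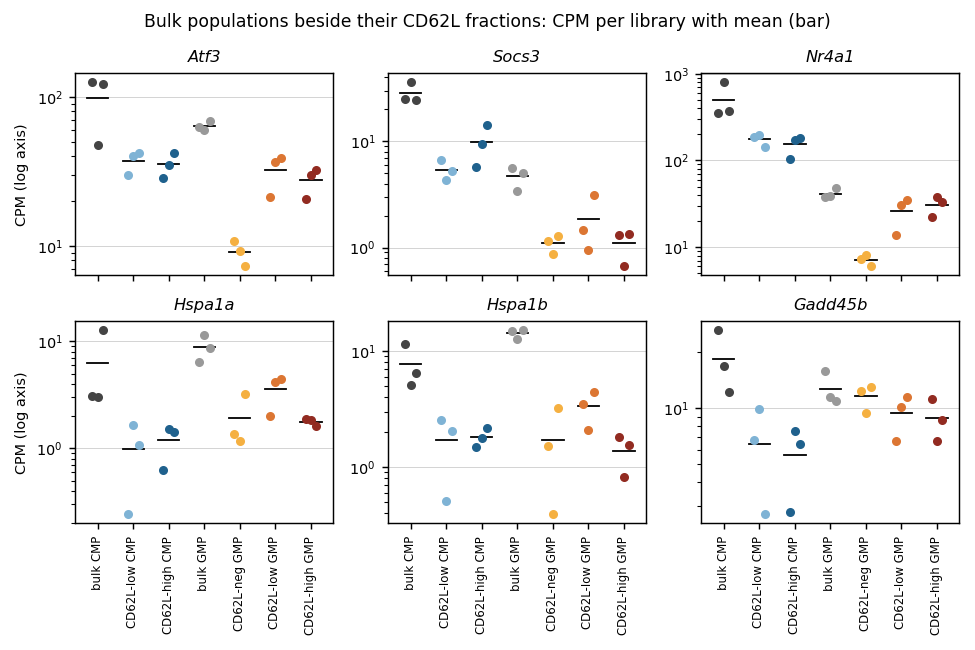
CPM on a log axis of 6 members per library (points) with the population mean (bar), bulk populations in grey. Bulk CMPs sit above both CMP fractions in all 6 panels, and bulk GMPs sit above all 3 GMP fractions for Atf3, Socs3, Nr4a1, Hspa1a and Hspa1b, but overlap them for Gadd45b.

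Heat shock genes were not called between fractions. None of the 10 tested was called in any of the 7 comparisons within CMPs, within GMPs or between them. Over all genes, 0.331% to 6.49% were called higher and 0.885% to 7.30% lower in these comparisons, so 0 of 10 is near those shares. Hspa8, the constitutive HSC70, stood at 1700, 1907 and 1750 CPM in CD62L-low CMPs and 2128, 2270 and 2381 in CD62L-high CMPs, which do not overlap and differ by less than the fold limit. Hsp90ab1 stood at 2472, 2692 and 2599 against 3991, 3808 and 3773 CPM. Dnajb1, the HSP40 partner of HSP70, went the other way, at 93.7, 130 and 84.0 CPM in CD62L-low and 61.5, 55.4 and 60.5 in CD62L-high CMPs (log2 fold change -0.79 ± 0.15, adjusted p = 0.000421 in edgeR). It was the only heat shock gene past the adjusted p in that comparison, which 7.27% of all genes passed as lower and 9.94% as higher. Without the pair of libraries that stood apart, 4 more passed it, all higher in CD62L-high CMPs, beside 14.0% of all genes that then passed as higher. In that fit, 6 of 10 passed the adjusted p as higher in CD62L-neg GMPs than in CD62L-low CMPs and 1 as lower. Of all genes, 15.8% and 13.5% did so. Between CD62L-high and CD62L-neg GMPs, Dnaja1 passed the adjusted p at a log2 fold change of -0.997 ± 0.22, beside 8.65% of all genes that passed as lower and 8.28% as higher. Its CD62L-high libraries were at 46.5, 97.6 and 106 CPM, with replicate 1 the lowest, against 175, 167 and 156. Hsph1, an HSP110 gene, was called higher in bulk than in CD62L-high GMPs (1.24 ± 0.31), and the call was lost without any bulk GMP library or CD62L-high replicate 1 (adjusted p from 0.0802 to 0.168). Processed pseudogenes share sequence with several of these genes: 39.4% of the 50-base stretches of Hspa8, 47.5% of Hsp90aa1 and 42.1% of Hspd1 occur in other genes, so their levels are uncertain. Among immediate early genes the share was above 6% only for Jund (48.3%) and Zfp36l1 (54.4%), whose partners Gm11175 and Gm26669 held 483 and 68 counts over the 21 libraries against 92180 and 5918. How reads that fit both genes were counted is not given in the sources used here, so these levels are uncertain too.

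Replicates within a population were compared because these genes also respond to handling. The median SD of log2(CPM + 1) between replicates was 0.345 for immediate early genes and 0.447 for heat shock genes. It was 0.256 for the 8348 genes with a mean of at least 10 CPM, a level some members did not reach. Over all 14801 genes tested it was 0.345. Without the pair of libraries that stood apart these values were 0.265, 0.156, 0.188 and 0.275. In bulk CMP replicate 2 all 10 heat shock genes were below the mean of the other replicates (median deviation -1.22 in log2), and 22 of 29 immediate early genes were above it (0.64). Hsp90ab1 was at 1013 CPM there against 3207 and 3199, Zfp36 at 2483 against 773 and 752, but Jun at 1306 against 2013 and 1969 and Nfkbia at 120 against 280 and 279. In CD62L-high GMP replicate 1 the median deviation was -0.82 for heat shock genes and 0.16 for immediate early genes, and Hsp90aa1 was at 281 CPM against 812 and 830. The share of counts in the 3 gene models moved with these deviations, and its part in them was not tested.

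Smaller shifts were shared by most immediate early genes in other libraries. In CD62L-low GMP replicate 1, 26 of 29 were below the other replicates (median deviation -0.45), and in CD62L-high CMP replicate 1, 23 of 29 (-0.40). In CD62L-neg GMP, 24 of 29 were below in replicate 3 (-0.29) and 22 above in replicate 2 (0.29). In CD62L-low CMP replicate 2, 25 of 29 were above (0.25). Over the genes with a mean of at least 10 CPM the median deviation of these 5 libraries lay between -0.0148 and 0.00888. Bulk GMP libraries were the most alike, with medians between -0.03 and 0.03.

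**Figure D5:**
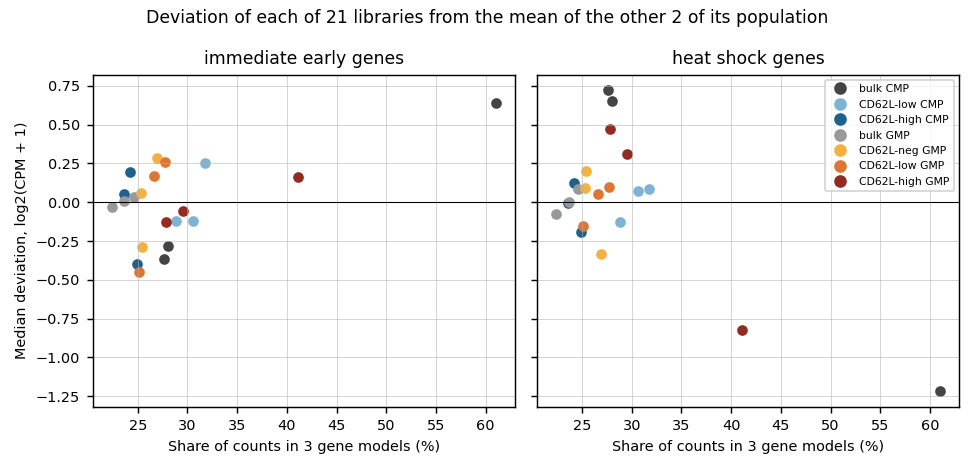
Each point is 1 of 21 libraries, coloured by population, with the share of its counts in the 3 gene models on the x axis and its median deviation from the mean of the other libraries of its population on the y axis, in log2(CPM + 1), for 29 immediate early genes (left) and 10 heat shock genes (right). Bulk CMP replicate 2 (61.0%) and CD62L-high GMP replicate 1 (41.1%) are the lowest points for heat shock genes, at -1.22 and -0.82.

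Related genes outside the 40 were read from lists of the same pathways. Of 40 other immediate early genes, 36 were tested, and between CD62L-high and CD62L-low CMPs 6 were called higher and 6 lower, beside 5.62% and 4.84% of all genes. Among those lower were Tnfaip3, an inhibitor of NF-kappa B signalling (log2 fold change -2.64 ± 0.21), Gadd45a (-2.04 ± 0.34) and Rgs1, a regulator of G protein signalling (-1.55 ± 0.25), and among those higher were Cebpd (3.17 ± 0.33), Trib1 (2.16 ± 0.21), Klf4 (2.08 ± 0.24) and Cebpb (1.64 ± 0.23), genes of myeloid differentiation as well. Between CD62L-high and CD62L-neg GMPs, 5 were called higher and 8 lower (beside 4.49% and 6.01%), with Klf4 at 4.19 ± 0.25 and Rgs1 at -2.99 ± 0.27. Between bulk GMPs and bulk CMPs, 1 was called higher (Gadd45a, 1.33 ± 0.33) and 16 lower (beside 4.19% and 7.30%), with Nr4a3, the remaining NR4A gene, at -3.03 ± 0.50 and Dusp5 at -2.97 ± 0.30. Of 23 genes upstream of the immediate early response, such as MAP kinases and their Spry and Spred inhibitors, 2 were called between CD62L-high and CD62L-low CMPs. Both were higher, a share near the 5.62% of all genes (Rps6ka1, 1.20 ± 0.15, and Mapkapk2, 1.15 ± 0.13). Of 39 other cytosolic chaperones tested, 2 were called there, both lower, a share near the 4.84% of all genes (Dnajb4, -1.49 ± 0.24, and Hspa4l, -1.10 ± 0.26). None of 7 mitochondrial chaperones or of the 3 heat shock factors tested was called in the 7 comparisons. Over all genes, 0.331% to 6.49% were called higher there and 0.885% to 7.30% lower.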

How the data were processed

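Per the labels and the study's methods, the authors used bcl2fastq, Trim Galore, HISAT2 (genome build mm10) and HTSeq to make the deposited counts. Tool versions, HTSeq settings and the handling of reads with several alignments are not given in the sources used here, and the labels and methods name different library kits. The study left out a bulk CMP sample for low mapping without naming it, and all 21 libraries were used here. Symbols matched 47224 of 47643 identifiers. With edgeR 4.0.16 (R 4.3.3), genes were filtered with filterByExpr, libraries scaled by TMM, 7 population means fitted, and quasi-likelihood F tests adjusted (Benjamini-Hochberg) over 14801 genes. CPM used TMM library sizes, and standard errors came from F. DESeq2 1.42.0 was an alternative. Lengths and 50-base stretches came from GENCODE vM21 (GRCm38). Members and lists were chosen with earlier results of these data known. All 40 members are named. Of related genes, called ones with the biggest changes are named, up to 4 in either direction. Counting intervals cover counting error only. The scripts were tested on simulated data. Levels of some marker genes are not reported here.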

Additional observations from a re-analysis of the deposited data

Results flagged for a closer look

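For 8 members the CD62L effect differed between CMPs (CD62L-high minus CD62L-low) and GMPs (CD62L-high minus CD62L-neg) in an interaction test in edgeR, with an adjusted p under 0.05. The difference of log2 fold changes was -2.301 for Nr4a1, -1.687 for Atf3, -1.239 for Fosl2 and -0.9346 for Jund. It was 2.433 for Zfp36l1, 2.319 for Ier3, 1.564 for Egr1 and 1.042 for Dnaja1. Dnaja1 was lowest in CD62L-high GMP replicate 1, the library with 41.1% of its counts in 3 gene models, and without that library its difference was 0.76 (adjusted p = 0.0578 in edgeR).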

How the results depend on the processing

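Of 144 member calls, 95 held in every alternative run, 49 were lost in at least 1, and 0 reversed. The cause was not tested. Called by adjusted p alone, CD62L-low against CD62L-neg GMPs had 11 members lower in place of 6, and CD62L-high GMPs against CD62L-high CMPs and CD62L-neg GMPs against CD62L-low CMPs had 1 higher each in place of 0. CD62L-high against CD62L-low GMPs had 2 lower in place of 1 with DESeq2 and with no filter on low counts, and 0 when only the libraries compared were fitted. Bulk GMPs against CD62L-low GMPs had 5 higher in place of 2 with DESeq2, 6 with no filter and 5 when only the libraries compared were fitted, and bulk CMPs against CD62L-low CMPs had 4 in place of 10 in that last fit. Differences between the CD62L effects were 9 above 0 and 7 below with no filter, in place of 4 and 4. Leaving out libraries (each in turn, or bulk CMP replicate 2 and CD62L-high GMP replicate 1 together, chosen after the data were seen) gave 3 to 8 lower in CD62L-low than in CD62L-neg GMPs, with 3 without CD62L-neg GMP replicate 2. It gave 0 to 2 lower in CD62L-high than in CD62L-low GMPs, and for bulk GMPs 1 to 2 lower than CD62L-neg, 0 to 5 higher than CD62L-low and 7 to 11 higher than CD62L-high GMPs. Bulk CMPs had 7 to 11 higher than CD62L-low CMPs. Differences between the CD62L effects ran from 2 to 9 above 0 and from 2 to 8 below. The median SD of heat shock genes, 0.447 with all libraries, was recomputed only without the libraries that stood apart, and was 0.284 without bulk CMP replicate 2 and 0.156 without both. No pairing of libraries by replicate number was detected, since no comparison had every same-numbered pair correlated above 0.1 in its deviations. With 3 libraries per population this cannot exclude pairing. With the replicate block, 14 members were lower in CD62L-high than in CD62L-low CMPs in place of 13, and none of the 144 calls was lost. Comparisons with bulk populations were added after the data were seen.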
